A study of Gallus gallus with 5 samples.

Results

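The open regions of the Z sex chromosome were examined in ATAC-seq peak lists from sorted cells of embryonic chick (Gallus gallus) retina. ATAC-seq uses the Tn5 transposase to cut and tag accessible DNA, and a peak list gives the intervals in which the cuts pile up. Every unique interval that the 5 lists place on Z was taken, and intervals that overlapped by at least 1 bp were merged across lists. This gave 9362 Z regions of 154266 merged regions in all, or 6.07%. Retinas were taken on embryonic day 5, electroporated with a ThrbCRM1-GFP reporter plasmid together with a CAG-Cherry plasmid, and kept as explants for 2 days. Cherry-positive cells were then sorted into a GFP-positive population (ThrbPos, 3 libraries) and a GFP-negative population (ThrbNeg, 2 libraries). ThrbCRM1 is a regulatory element of Thrb, which encodes thyroid hormone receptor beta, and its activity marks progenitors that give cones and horizontal cells. Both populations come from retinas given both plasmids and hold only Cherry-positive cells. ThrbNeg is thus a mixture of electroporated retinal cells sorted as lacking GFP. Sorting on Cherry does not show that each ThrbNeg cell took up the reporter plasmid. The labels do not give the sex of the embryos or say whether retinas were pooled, and nothing in them says that replicates came from separate cultures. The spread between libraries may therefore be technical in part.

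In birds the male carries a pair of Z chromosomes and the female 1 Z and 1 W, so that DNA of W comes from female cells. Chicken has no chromosome-wide inactivation of Z, and many Z genes are expressed more highly in males. A few places on chicken Z behave differently in the sexes. The best known is the male hypermethylated (MHM) locus, whose DNA is methylated in males and unmethylated, open and transcribed into a non-coding RNA in females. The coordinates below are those of the deposited lists, which the submitters' processing notes give as galGal5, with 1-based starts. No annotation of that build was used, so no region is assigned to a gene or to a named locus, the defining genes of retina were not checked, and no sequence is shown.

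The 5 lists hold 71596 to 104902 unique intervals, and read depth is unknown because the lists give no counts. Absence of an interval means that no peak was called there at an unknown depth, and does not show closed chromatin. The library names inside the peak names are of 2 kinds: replicate 1 of each population forms a first naming series, and ThrbPos replicates 2 and 3 and ThrbNeg replicate 2 form a second. Whether the kinds mark separate experiments is not stated.

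The lists placed 3479, 4518 and 4334 unique intervals on Z in ThrbPos replicates 1, 2 and 3, and 3478 and 7614 in ThrbNeg replicates 1 and 2. As a share of all intervals, Z held 4.03%, 6.27% and 6.05% in the ThrbPos libraries and 4.13% and 7.26% in the ThrbNeg libraries. Replicate 1 of both populations was thus low, and the 2 populations overlapped. Intervals on W separated the same libraries: ThrbPos replicate 1 listed 11 and ThrbNeg replicate 1 listed 15, while the other 3 lists held none. The first naming series is therefore also the set of lists with W intervals, and the 2 properties cannot be told apart here.

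Of the W intervals, 10 of the 11 in ThrbPos replicate 1 overlapped one in ThrbNeg replicate 1. They lay between 73820 and 4746734 on W. Their fold enrichment, the authors' ratio of the summit to the local background of the same library, ran from 2.44 to 4.99 in ThrbPos replicate 1 and from 2.10 to 5.44 in ThrbNeg replicate 1. The strongest W interval ranked 22238 and 22027 in its list, where rank 1 is the interval with the highest −log10 p. These are intervals of middle and low strength, at 2.42 and 3.16 per Mb of W up to its last interval.

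Z was compared within each list with chromosomes 1 to 5, up to the last interval of each (82.0 Mb for Z). These span 59.8 Mb (chromosome 5) to 196 Mb (chromosome 1), and chromosomes 4 and 5 are the nearest of them to Z in size. Z carried 42.4, 55.1 and 52.9 intervals per Mb in ThrbPos replicates 1, 2 and 3, and 42.4 and 92.8 in ThrbNeg replicates 1 and 2. Chromosomes 1 to 5 carried 86.2, 63.0 and 68.1 intervals per Mb in the ThrbPos libraries and 87.4 and 102 in the ThrbNeg libraries. The 2 lists with W intervals thus had dense large chromosomes and the sparsest Z. The ratio of Z to chromosomes 1 to 5 was 0.492, 0.875 and 0.776 in ThrbPos and 0.485 and 0.907 in ThrbNeg. Each of chromosomes 1 to 5, set against the other 4 in the same way, stayed between 0.870 and 1.24 in every library. Chromosome 1 was below the other 4 in each library, at 0.876, 0.888 and 0.884 in ThrbPos and 0.870 and 0.890 in ThrbNeg. A ratio below 1 in every library is thus not particular to Z. In ThrbPos replicate 2 and ThrbNeg replicate 2 the ratio of Z was near that of chromosome 1. Z was below chromosomes 1 to 5 in 5 of 5 libraries, with a mean log2 ratio of -0.55 (exact sign-flip permutation test over libraries, two-sided, p = 0.0625, the smallest that 5 libraries allow). The mean log2 ratio was -1.03 over the 2 lists with W intervals and -0.23 over the 3 without. Against chromosomes 4 and 5 alone it was -0.69 over the 5 libraries. The span of Z includes a stretch of 5.12 Mb without an interval in any list, while the longest gap on chromosomes 1 to 5 was 610 kb. That stretch lowers the density of Z in every list, and the ratio without it was not tested.

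**Figure D1:**
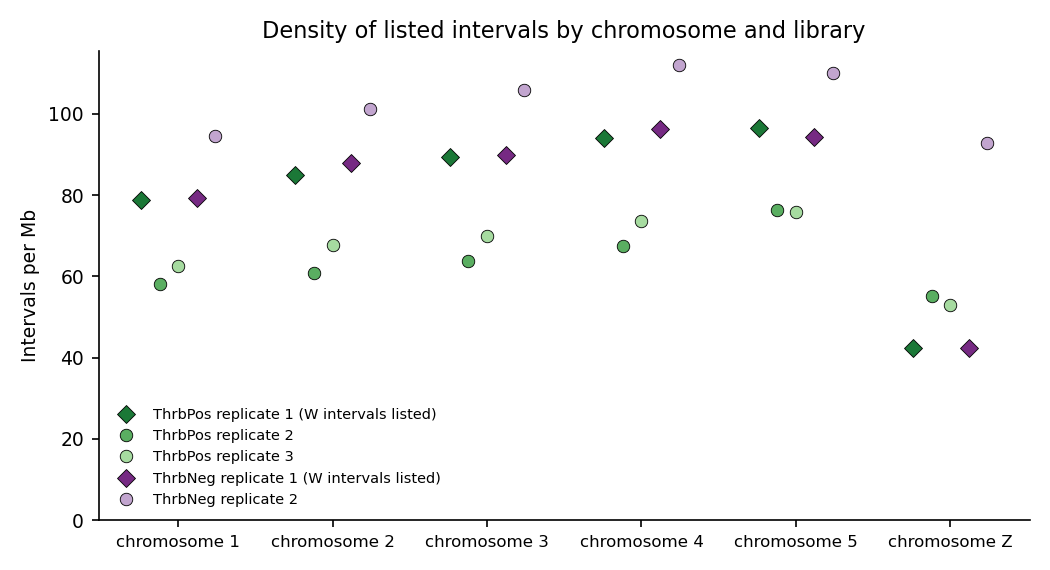
Unique intervals per Mb (vertical axis) on chromosomes 1 to 5 and Z, with 1 point per library. The 2 lists with W intervals (diamonds) lie at 42.4 per Mb on Z, below the other 3, although they lie above 2 of those 3 on every other chromosome shown.

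The populations did not part in this ratio. It was 0.714 ± 0.199 (SD, n = 3) in ThrbPos and 0.696 ± 0.298 (SD, n = 2) in ThrbNeg, a difference of 0.018 (exact permutation test over the 10 splits, two-sided, p = 0.9, where the smallest possible is 0.1). Within the first series, with 1 library per population and no replicate check, ThrbPos minus ThrbNeg was 0.0065. Within the second series it was -0.082. The sign of the pooled difference turned when ThrbNeg replicate 1 (-0.19), ThrbPos replicate 2 (-0.063) or ThrbPos replicate 3 (-0.013) was left out, and without ThrbPos replicate 1 or ThrbNeg replicate 2 it grew to 0.13 or 0.23. The spread inside each population exceeded the pooled difference.

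The deficit of Z in the lists with W intervals was present at every strength of interval. Among the strongest 1000 intervals of a list, Z held 43, 94 and 102 in ThrbPos replicates 1, 2 and 3, and 35 and 112 in ThrbNeg replicates 1 and 2. In density, relative to chromosomes 1 to 5, these are 0.434, 1.13 and 1.05, and 0.337 and 1.19. At the very top of the ranking Z was thus at or above the other large chromosomes in the 3 lists without W intervals and far below them in the 2 lists with them. Among intervals ranked after the first 1000 and up to 5000 the libraries lay closer together, at 0.744, 0.835, 0.842, 0.725 and 0.954 in the same order. Beyond rank 50000 the ratio was 0.351 and 0.319 in the lists with W intervals and 0.713 to 0.913 in the others.

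**Figure D2:**
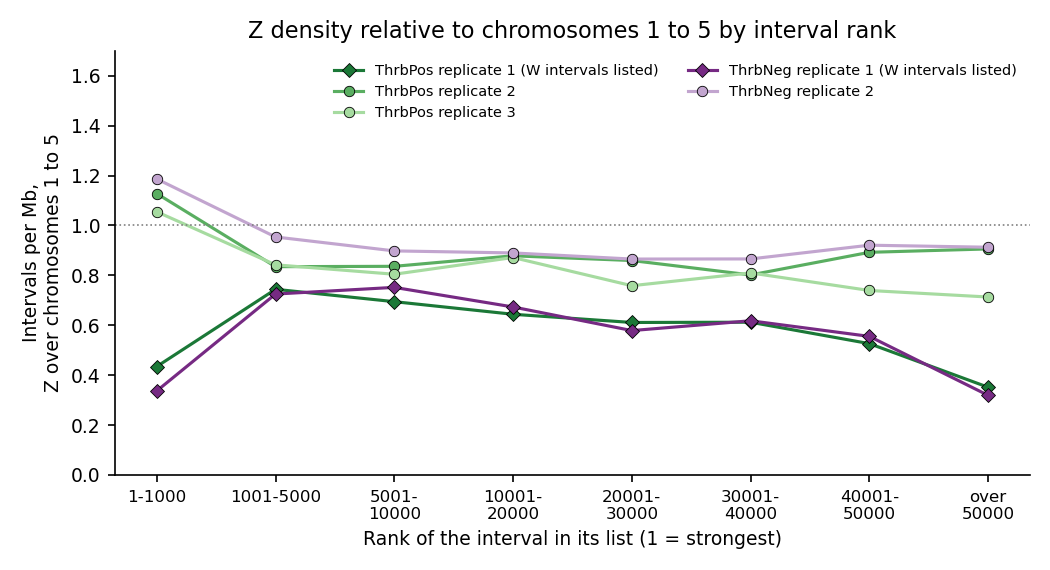
Density of Z intervals divided by that of chromosomes 1 to 5 (vertical axis) in 8 classes of rank within each list (horizontal axis, strongest on the left), 1 line per library. The lines with diamonds, for the 2 lists with W intervals, lie below the other 3 in every class, from 0.434 and 0.337 among the strongest 1000 to 0.351 and 0.319 beyond rank 50000.

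Over all intervals, the fold enrichment of Z relative to chromosomes 1 to 5 ran in the reverse order of the density ratio across libraries. Whether it follows from which intervals were listed was not tested. Over all Z intervals of a list, the authors' median fold enrichment was 3.44, 3.40 and 3.90 in ThrbPos replicates 1, 2 and 3, and 3.71 and 2.96 in ThrbNeg replicates 1 and 2. On chromosomes 1 to 5 it was 2.83, 3.40 and 3.71, and 2.97 and 2.999. The ratio of Z to chromosomes 1 to 5 was 1.22 and 1.25 in the lists with W intervals, and 1, 1.05 and 0.988 in the 3 without. The strongest 50000 intervals of a list held 66.8%, 66.9% and 70.1% of its Z intervals in ThrbPos replicates 1, 2 and 3, and 70.4% and 43.8% in ThrbNeg replicates 1 and 2. On chromosomes 1 to 5 they held 53.5%, 68.0% and 67.5%, and 54.9% and 44.1%. Z and the other chromosomes thus differed in this share by over 10 percentage points only in the lists with W intervals, whose Z shares were like those of ThrbPos replicates 2 and 3. The lists hold 71596 to 104902 intervals, so the strongest 50000 are a different part of each. Like shares in 2 lists therefore do not show like strength. Over the 5 libraries the mean log2 ratio was 0.13 (exact sign-flip permutation test, two-sided, p = 0.25), and 0.076 with the strongest 50000 intervals of each list. ThrbPos and ThrbNeg did not separate, at 1.09 ± 0.112 (SD, n = 3) and 1.12 ± 0.185 (SD, n = 2) (exact permutation test, two-sided, p = 0.8). The within-series differences of ThrbPos minus ThrbNeg were -0.035 and 0.038, on either side of 0. The pooled difference also changed sign without ThrbPos replicate 2 (0.015) or ThrbNeg replicate 1 (0.10).

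At regions found in all 5 lists the same places are compared in every library. There were 2050 such regions on Z and 21431 on chromosomes 1 to 5. Their median fold enrichment on Z was 4.77, 5.24 and 6.11 in ThrbPos replicates 1, 2 and 3, and 5.44 and 6.99 in ThrbNeg replicates 1 and 2. On chromosomes 1 to 5 the medians were 4.72, 4.65 and 5.41, and 5.07 and 5.78. The ratio was 1.01 and 1.07 in the lists with W intervals, lower than the 1.13, 1.13 and 1.21 of the lists without. Z was the higher in 5 of 5 libraries, with a mean log2 ratio of 0.15 (exact sign-flip permutation test, two-sided, p = 0.0625, the smallest possible). Without ThrbNeg replicate 1 it was 0.084. The size of the excess and the order of the 2 kinds of list rest on the regions chosen. Over regions common to the 2 lists with W intervals the mean log2 ratio was 0.26, and over those common to the other 3 lists it was 0.044. Presence in all 5 lists did not weigh equally on Z and chromosomes 1 to 5. Regions missing from ThrbPos replicate 1 alone were 1.81% on Z against 0.604%, and from ThrbNeg replicate 1 alone 3.63% against 1.61%. For each of the other 3 lists this share was lower on Z. The effect of this choice on the ratio was not tested, so the excess is not read as a property of Z.

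**Figure D3:**
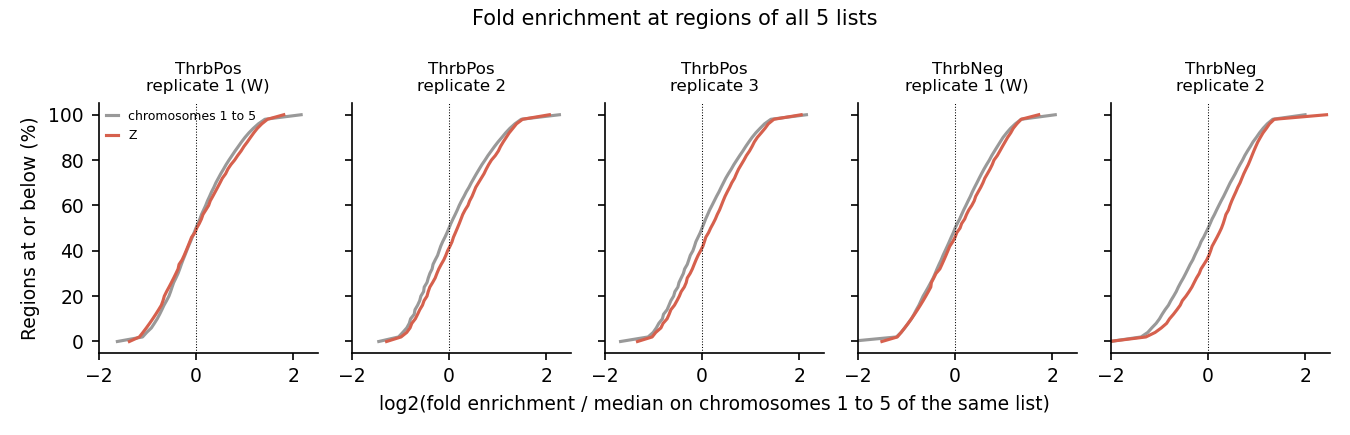
Cumulative share of regions (vertical axis, %) by log2 fold enrichment relative to the median of chromosomes 1 to 5 in the same list (horizontal axis), for the 2050 Z regions and 21431 regions of chromosomes 1 to 5 found in all 5 lists, 1 panel per library. At the median the Z line lies to the right by the least in ThrbPos replicate 1 (ratio 1.01), where the lines cross and Z is lower among weak regions (ratio 0.938 at percentile 10), and by the most in ThrbNeg replicate 2 (1.21).

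The median width of Z intervals was 374, 273 and 297 bp in ThrbPos replicates 1, 2 and 3, and 398.5 and 292.5 bp in ThrbNeg replicates 1 and 2. The 2 lists with W intervals had the widest. They exceeded chromosomes 1 to 5 of the same list by 49.5 and 55.5 bp, against 6, 14 and -3.5 bp in the other 3. Like the fold ratio over all intervals, this excess ran in the reverse order of the density ratio across libraries. The mean excess over 5 libraries was 24.3 bp (exact sign-flip permutation test, two-sided, p = 0.125). It was 2 bp with the strongest 50000 intervals of each list and 10.2 bp against all numbered chromosomes. Chromosome 5 alone had medians of 345, 280 and 302 bp in ThrbPos and 371 and 317 bp in ThrbNeg. Z was wider than chromosome 5 only in the 2 lists with W intervals. ThrbPos and ThrbNeg medians averaged 315 ± 52.8 (SD, n = 3) and 345.5 ± 74.95 bp (SD, n = 2), within the spread of libraries (exact permutation test, two-sided, p = 0.6), and within the series ThrbPos minus ThrbNeg was -24.5 and -7.5 bp. Without ThrbNeg replicate 1 ThrbPos was the wider, by 22.2 bp, and with the strongest 50000 intervals the difference was -106 bp. Intervals with more than 1 summit made up 30.3%, 26.0% and 23.3% of Z intervals in ThrbPos and 27.3% and 25.4% in ThrbNeg. On chromosomes 1 to 5 their shares were 26.6%, 26.2% and 21.8%, and 23.7% and 26.5%.

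Of the 9362 Z regions, 2050 (21.9%) were in all 5 lists and 4362 (46.6%) in a single list. On chromosomes 1 to 5 the shares were 22.4% and 42.8%, and over all sequences 25.2% and 39.7%. Z regions of all 5 lists had a median width of 806 bp and those of a single list 177 bp. The lists contributed unequally to the single ones. ThrbNeg replicate 2 alone held 3081 regions, 32.9% of Z regions against 15.3% on chromosomes 1 to 5. ThrbPos replicate 1 alone held 136 and ThrbNeg replicate 1 alone 128 (1.45% and 1.37%, against 10.1% and 9.81% on chromosomes 1 to 5). ThrbPos replicates 2 and 3 alone held 590 and 427 (6.30% and 4.56%, against 3.42% and 4.08%). Over all sequences the shares were 15.7% for ThrbNeg replicate 2 and 7.70% for ThrbNeg replicate 1. For ThrbPos replicates 1, 2 and 3 they were 8.47%, 4.24% and 3.67%. The longest list without W intervals thus supplied most of the Z regions seen once, and the lists with W intervals supplied few.

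Among the Z regions found in all 5 lists, the 5 with the lowest mean rank are named here. Their presence in every list was a condition of the choice. A low mean rank favours regions strong in every list, so likeness of the populations at them is no separate result. The first lay on Z from 46508991 to 46510328 (1338 bp) and ranked 24, 18 and 20 in ThrbPos replicates 1, 2 and 3, and 76 and 4 in ThrbNeg replicates 1 and 2. Its fold enrichment was 14.8, 13.9 and 14.4 in ThrbPos and 13.5 and 15.0 in ThrbNeg, a narrow range in which the populations overlap. The second, from 18070715 to 18071870, ranked 229, 29 and 68 in ThrbPos and 171 and 18 in ThrbNeg. The third, from 20605980 to 20607089, ranked between 28 and 224. The fourth, from 47614645 to 47615742, ranked 231, 21 and 15 in ThrbPos and 392 and 26 in ThrbNeg. The fifth, from 34953448 to 34954785, ranked between 38 and 270. In 4 of these 5 regions, all but the third, the 2 lists with W intervals gave the 2 weakest ranks. These are 5 of 2050 such Z regions, and the matching share over the rest or over other chromosomes is not given. The count is therefore not read as a property of Z.

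The widest Z regions were also in all 5 lists but were of moderate strength. The widest, from 41061289 to 41065380, spanned 4092 bp and joined 13 intervals of the 5 lists, with fold enrichments of 3.93 to 5.35. The next spanned 3971 bp from 37556902 to 37560872, and the one after that 3138 bp from 851052 to 854189. Their ranks lay between 6126 and 26609.

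Regions were spread over the whole of Z with 1 large gap. In the 82 complete bins of 1 Mb the median was 119.5 regions, and 4 adjacent bins held none. The gap ran from 73380726 to 78502015, a stretch of 5.12 Mb without an interval in any list, while the longest gap on chromosomes 1 to 5 was 610 kb. The second longest gap on Z, of 812 kb, ran from 80101501 to 80913718, and the third, of 229 kb, from 67916385 to 68145695. Elsewhere the median distance between neighbouring regions was 4.802 kb on Z and 3.63 kb on chromosomes 1 to 5. The densest bins were those at 18 to 19 Mb with 197 regions, at 14 to 15 Mb with 189, and at 50 to 51 Mb and 61 to 62 Mb with 185 each. Among complete bins with any region, the sparsest were at 80 to 81 Mb with 13, at 73 to 74 Mb with 25 and at 78 to 79 Mb with 41, all reaching into a gap.

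ThrbNeg replicate 2 alone set part of this profile. In the densest bin it listed 170 intervals, against 61, 83 and 83 in ThrbPos replicates 1, 2 and 3 and 71 in ThrbNeg replicate 1. Between 29 and 30 Mb it listed 103, against 12, 29, 28 and 16 in the same order. That bin held only 6 regions of all 5 lists, the fewest of any bin with a region apart from the bin at 80 to 81 Mb, which also held 6, and the incomplete last bin. Counted by regions of all 5 lists, the densest bins were the first 2 Mb of Z, with 46 and 42. Over the 78 complete bins with a region, Spearman's rho between the interval counts was 0.805 to 0.922 among the other 4 libraries. It was 0.504 to 0.678 for ThrbNeg replicate 2 with each of the other 4. These values describe bins of 1 chromosome that share libraries and carry no test.

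**Figure D4:**
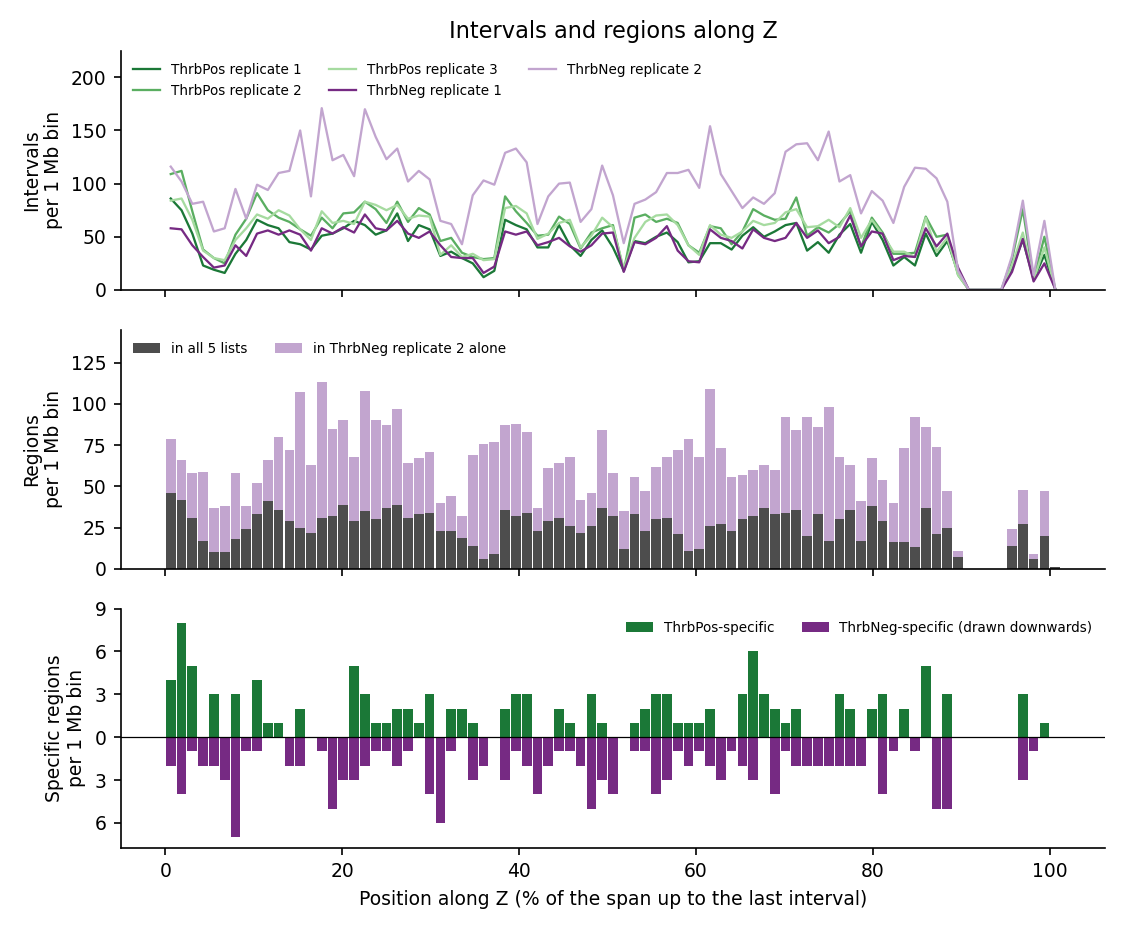
Position along Z as % of the span up to the last interval (horizontal axis), in bins of 1 Mb. The upper panel gives the intervals of each library, the middle panel the stacked numbers of regions found in all 5 lists and in ThrbNeg replicate 2 alone, and the lower panel the population-specific regions, up to 8 in a bin for ThrbPos. The gap of 5.12 Mb near the right end is empty in all 5 lists.

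Similarity on Z followed the sorted populations. Overlap in bp as a share of the bp covered by at least 1 of 2 lists (the Jaccard index) was taken over the Z intervals among the strongest 50000 of each list. It was 0.644, 0.653 and 0.676 for the 3 pairs of ThrbPos libraries and 0.632 for the ThrbNeg pair. It was 0.483 to 0.566 for the 6 pairs across populations, with the highest for the 2 lists with W intervals. Each within-population pair thus exceeded each pair across populations. The mean difference was 0.136 on Z (exact permutation test over the splits, one-sided, p = 0.1, which is the lowest the design allows) and 0.133 on chromosomes 1 to 5.

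Regions of a single population were then counted. A Z region counted as ThrbPos-specific if every ThrbPos list had an interval there among its strongest 50000 and neither ThrbNeg list had any interval there, and as ThrbNeg-specific the other way round. There were 124 ThrbPos-specific Z regions, 1.32% of Z regions, where 1.77% of regions over all sequences and 1.52% on chromosomes 1 to 5 met the definition. There were 153 ThrbNeg-specific Z regions, 1.63% of Z regions, against 1.52% over all sequences and 1.47% on chromosomes 1 to 5. Both shares lay close to the background, so Z was not set apart by population-specific regions. The counts moved with single libraries: the ThrbPos-specific count was 299 without ThrbNeg replicate 2 and 240 without ThrbPos replicate 1, and the ThrbNeg-specific count was 561 without ThrbNeg replicate 1. Leaving out a library removes a condition and can raise such counts by itself. Shares over all sequences are not given for these settings, so the counts are not read as a property of Z.

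Within the first series 423 Z regions were found in ThrbPos and not in ThrbNeg (4.52%, against 4.85% on chromosomes 1 to 5) and 411 the other way round (4.39% against 4.65%). Within the second series the counts were 251 (2.68% against 2.52%) and 622 (6.64% against 4.42%). The last of these shares, for regions of ThrbNeg replicate 2 missing from both other lists of its series, was the only one of the 4 that stood over 1 percentage point from chromosomes 1 to 5. It compares 1 library with 2 and has no replicate check.

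The ThrbPos-specific Z regions were of middle strength. Their median fold enrichment was 3.44, 4.20 and 4.62 in ThrbPos replicates 1, 2 and 3, and the best ranks were 13227, 8278 and 11241. ThrbPos-specific regions of chromosomes 1 to 5 had medians of 3.57, 3.90 and 4.36 in the same order. The definition also limits strength, so middle strength is not read as a property of Z. The region with the lowest mean rank lay on Z from 39230685 to 39230961 (277 bp) and ranked 17021, 16451 and 12033, with fold enrichments of 4.86, 4.86 and 5.997. It was strongest in ThrbPos replicate 3 and nearly equal in the other 2. The second, from 56291587 to 56292046, ranked 27295, 8278 and 11241, with fold enrichments of 4.32, 9.26 and 8.76, and was the weaker in the list with W intervals. The third lay from 9544660 to 9545213, the fourth from 62478328 to 62478670 and the fifth from 56669581 to 56670120, and over these 3 regions and 3 libraries fold enrichment ran from 5.32 to 7.24. The ThrbNeg lists held no interval at any of the 5, as the definition requires.

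Among the ThrbNeg-specific Z regions the strongest had the best rank in both libraries. It lay from 51757741 to 51758425 (685 bp) and ranked 13035 in ThrbNeg replicate 1 and 8974 in ThrbNeg replicate 2, at fold enrichments of 7.795 and 11.0. The second, from 57813549 to 57813783, ranked 19009 and 17583, with fold enrichments of 6.06 and 6.76. The third, from 64949550 to 64950487, ranked 21405 and 16903. The fourth, from 56534994 to 56535594, ranked 32354 in ThrbNeg replicate 1 and 10475 in ThrbNeg replicate 2. The fifth, from 66620629 to 66621187, ranked 24380 and 21038. Over the 153 regions the median fold enrichment was 3.38 and 4.44 in the 2 ThrbNeg libraries.

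By position, the ThrbPos-specific regions were most numerous at one end. The bin at 1 to 2 Mb held 8 of the 124, more than any other bin, and the first 3 bins held 4, 8 and 5. The same bins held 2, 4 and 1 ThrbNeg-specific regions. As a share of each library's own Z intervals, the bin at 1 to 2 Mb held 2.16%, 2.48% and 1.98% in ThrbPos replicates 1, 2 and 3, and 1.64% and 1.34% in ThrbNeg replicates 1 and 2. The ThrbPos libraries were all higher there, without overlap, and likewise in the bins on either side. Such bins were not rare. By this share 16 of 79 Z bins with an interval (20.3%) had every ThrbPos library above every ThrbNeg library and 16 (20.3%) had them below, while on chromosomes 1 to 5 the figures were 32.1% and 26.2% of 611 bins. When each bin was instead taken as a share of the intervals on chromosomes 1 to 5 and Z together, 1 Z bin was higher in ThrbPos and 0 were lower, against 32.7% and 22.7% of bins on chromosomes 1 to 5. That 1 bin was the incomplete last one, with 1 interval in each list. This joint share also carries the level of Z in each list. That level was low in replicate 1 of both populations (density ratios 0.492 and 0.485), so overlap by this share does not show that the populations are alike by bin. By the same share, 24 bins did not overlap without ThrbPos replicate 1, 41 without ThrbNeg replicate 1, 42 without ThrbNeg replicate 2 and 2 without ThrbPos replicate 2. The matching shares on chromosomes 1 to 5 are not given for these settings, so the counts are not read as a property of Z.

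Finally the lists with W intervals were set against those without, region by region. Only 14 Z regions (0.150%) were in both lists with W intervals and in none of the other 3, where 1.11% of regions over all sequences and 1.4% on chromosomes 1 to 5 were. The reverse held for 183 Z regions (1.95%), in all 3 lists without W intervals and in neither of the others, against 0.568% over all sequences and 0.354% on chromosomes 1 to 5. The strongest of the 183 lay from 1000210 to 1000396 and ranked 17137, 17920 and 15984 in ThrbPos replicates 2 and 3 and ThrbNeg replicate 2, with fold enrichments of 6.22, 6.57 and 8.22. The next lay from 46464499 to 46464848 and the third from 19576490 to 19576781, with ranks between 22046 and 26854.

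The 14 regions of the lists with W intervals were few, and their ranks varied widely. The region with the lowest mean rank lay from 27268310 to 27268829 (520 bp). It ranked 3111 in ThrbPos replicate 1 and 3619 in ThrbNeg replicate 1, with fold enrichments of 14.4 and 14.7 and −log10 q of 103 and 95.6, and the other 3 lists held no interval there. The next, from 27170712 to 27170938, ranked 12210 and 12355, with fold enrichments of 7.32 and 8.04. The third, from 73166286 to 73166559, ranked 17223 and 18134, with fold enrichments of 4.65 and 5.01. These 3 were within rank 20000 in both lists. Of the 1339 regions on chromosomes 1 to 5 with the same presence, 0 were within that rank in both lists, and the lowest mean rank was 20679. Within rank 40000 in both lists there were 6 of the 14 Z regions and 5 of the 1339.

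Of these 14 regions, 7 fell into 2 stretches in which each had another of the 14 within 200 kb. The stretches were chosen after the values were seen. The other 7 regions were isolated and weak, with mean ranks of 56850.5 or more. The matching share among regions of other chromosomes with the same presence is not given. The closeness of the 7 is therefore not read as a property of Z. The first stretch ran from 27170712 to 27307293 (137 kb) and held 4 regions. ThrbPos replicate 1 had an interval in all 4 and ThrbNeg replicate 1 in 3, while ThrbPos replicates 2 and 3 and ThrbNeg replicate 2 had 0. The fourth region there, from 27252100 to 27252246, was listed in ThrbPos replicate 1 alone, at a fold enrichment of 3.99. The stretch was found from regions chosen for presence in both lists with W intervals and absence from the others, and 3 of its 4 regions met that condition. Likeness of the sorted populations here, and difference between the 2 kinds of list, were therefore set by the choice and are no separate result.

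The second stretch ran from 73006622 to 73171151 (165 kb) and ended shortly before the gap of 5.12 Mb. It held 15 regions, of which 4 were in all 5 lists and 4 in the lists with W intervals only. One of the shared regions, from 73038248 to 73039107, was strong in every list, at ranks 4421, 3080 and 1336 in ThrbPos and 4513 and 2909 in ThrbNeg. The last 5 regions of the stretch, from 73161987 on, had an interval in both lists with W intervals in each case. In the other 3 lists only ThrbPos replicate 3 had any, at the first and second of these 5, with fold enrichments of 3.29 and 2.74. Over the stretch ThrbPos replicate 1 and ThrbNeg replicate 1 had intervals in 12 and 13 regions, and the other 3 libraries in 8 each. The 4 regions of the lists with W intervals only were chosen for that presence, and some are among the last 5. They raise the counts of these 2 lists by construction, so the difference between the kinds of list is no separate result here either. Whatever else the first naming series shares cannot be told apart from the presence of W intervals in these lists.

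**Figure D5:**
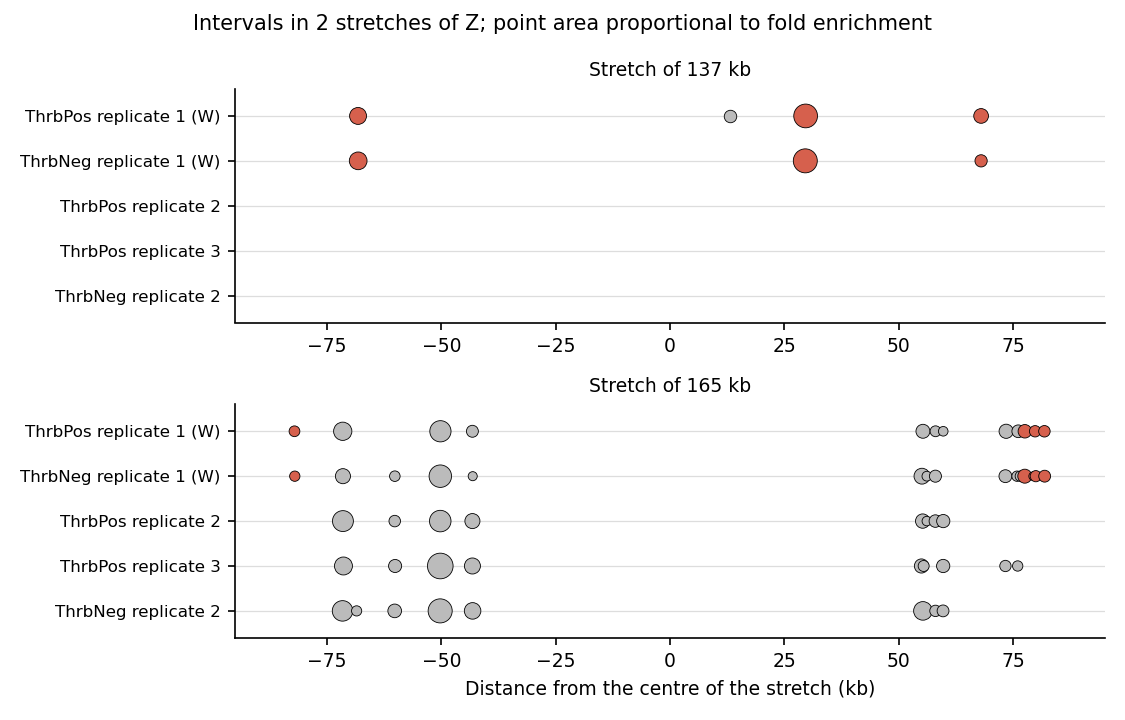
Intervals in the 2 stretches of Z, by distance from the centre of the stretch (horizontal axis, kb) and library (rows, with the 2 lists that hold W intervals on top and marked W). Point area is proportional to the authors' fold enrichment, and coloured points are the 7 regions found in both lists with W intervals and in none of the other 3. The first stretch is empty in the other 3 lists, and in the second the coloured points stand beside regions found in all 5 lists.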

How the data were processed

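Each of the 5 libraries has 1 deposited peak list, with peaks called per library. Reads were aligned with Bowtie2 to galGal5 and peaks called with MACS2, per the submitters' processing notes. Versions, settings, duplicate handling and any Tn5 shift are not given in the sources used here. The deposited columns hold a fold enrichment (ratio) of the summit over local background, −log10 p-values and −log10 q-values, a whole-number score (not used) and positions. The smallest −log10 q was 1.30 in each list.

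Rows repeating an interval were reduced to the strongest summit, and intervals were ranked by −log10 p, with ties ordered by fold enrichment and then by a seeded random order. Intervals were merged across lists at 1 bp overlap. One value per library was compared by exact permutation over the 10 splits of 3 and 2, or by exact sign flips (32 arrangements) for Z against chromosomes 1 to 5, so no test could pass 0.05. Calculations used Python 3.11.15, numpy 2.4.6 and pandas 2.3.3, and were tested on simulated lists. The named regions are those of lowest mean rank in each set, the widest regions, the densest and sparsest bins and the longest gaps. The members, definitions and rules were chosen with earlier results of these data known. Alternatives were a stricter q, other list lengths, comparison chromosomes, overlaps and bins, single libraries left out, and each naming series alone.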

Additional observations from a re-analysis of the deposited data

Results flagged for a closer look

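ThrbPos minus ThrbNeg differed in sign between the 2 naming series for both within-list ratios of Z to chromosomes 1 to 5. These differences between series were not tested. Each difference below was smaller in size than the SD of either population. Those SDs span both naming series, so they do not measure the spread within a series. Only ThrbPos in the second series has a replicate within its series, so no direction is read from these differences. In ThrbPos and ThrbNeg those SDs were 0.199 and 0.298 for the density ratio and 0.112 and 0.185 for the fold ratio. For density, ThrbPos minus ThrbNeg was 0.0065 in the first series, and -0.032 and -0.132 for ThrbPos replicates 2 and 3 in the second. For median fold enrichment it was -0.035 in the first series, and 0.012 and 0.065 for ThrbPos replicates 2 and 3 in the second. The first series has 1 library per population, and its lists are the 2 with W intervals.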

How the results depend on the processing

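The lower density of Z, its higher fold enrichment at common regions and over all its intervals, its larger width and the excess of within-population similarity kept their direction in every alternative run. Their leave-one-out ranges were -0.66 to -0.43 and 0.084 to 0.21 and 0.085 to 0.17 (log2), 16.5 to 31.25 bp, and 0.118 to 0.167. Outside these ranges, the width excess was 2 bp with the strongest 50000 intervals, 10.2 bp against all numbered chromosomes, 15.9 bp at a q of 0.01, and 52.5 and 5.5 bp in the first and second naming series alone. In those 2 series density was -1.03 and -0.23, and fold enrichment over all intervals 0.30 and 0.019. At regions common to the lists of each series, fold enrichment was 0.26 and 0.044. Density was -0.69 against chromosomes 4 and 5. No alternative left out the gap of 5.12 Mb on Z. By library, log2 fold enrichment over all intervals was above 0 in 3 and below 0 in 1, and the width excess above 0 in 4 and below 0 in 1. Against chromosome 5 alone, Z was wider only in the 2 lists with W intervals. The ThrbPos minus ThrbNeg differences have no stable sign. For the density ratio the leave-one-out range was -0.19 to 0.23. The difference was below 0 with the strongest 50000 intervals (-0.0013), all numbered chromosomes (-0.031), the second naming series alone (-0.082) and a replicate block on the numbers the 2 populations share (-0.013). For the fold ratio the leave-one-out range was -0.16 to 0.10, with 0.038 in the second series alone. For width it was -83.8 to 22.2 bp, above 0 only without ThrbNeg replicate 1, and -106 bp with the strongest 50000 intervals. The shared numbers cannot be taken to pair the libraries: over 79 bins of Z the replicate differences correlated at 0.29, with 2 pairs.

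Specific counts moved with the definition. ThrbPos-specific and ThrbNeg-specific Z regions were 3 and 2 with the strongest 20000 intervals, 249 and 506 with all intervals, 293 and 328 when absence was judged on the strongest 50000, 423 and 411 in the first series alone and 251 and 622 in the second. With all intervals the counts were 2.66% and 5.40% of Z regions, below the 3.40% and 7.15% over all sequences. For the other counts of this paragraph no share over all sequences is given, and they show only how the number depends on the definition. Leave-one-out ranges were 137 to 299 and 187 to 561. Requiring an interval to cover at least 0.5 of a region, an alternative chosen after the data were seen, like the series, the tie order and the bins' own share, gave 377 ThrbNeg-specific regions and 1163 regions in all 5 lists. The replicate block gave 138 and 205. Ordering tied intervals by chromosome name gave 124 and 137. Bins whose populations did not overlap numbered 1 in the main setting, 2 at a q of 0.01, 3 with 500 kb bins, 32 by the chromosome's own share, and 1 to 42 with a library left out. In the main setting they were 1.27% of Z bins, against 55.5% on chromosomes 1 to 5. The main setting also carries the level of Z in each list, which was low in replicate 1 of both populations. The shares were 1.94% against 50.5% with 500 kb bins, and 40.5% against 58.3% by the chromosome's own share. For all of these the cause was not tested. Comparison chromosomes do not enter the width of Z in ThrbPos against ThrbNeg, so those alternatives were not run, and requiring overlap of 0.5 of the shorter interval changes nothing by construction.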
